A study of Caenorhabditis elegans with 15 samples.

Results

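Cis acceptor sites are the splice sites at the start of internal exons, where an exon is normally joined to the exon before it in the same transcript. In Caenorhabditis elegans many transcripts also receive a short spliced leader, SL1 or SL2, which a small ribonucleoprotein donates to an acceptor near the start of the transcript. Such a trans acceptor has no donor site upstream of it in its own transcript, and SL2 is used mainly at downstream genes of operons. A leader that is read at a cis acceptor therefore stands where the preceding exon would ordinarily be. The deposited table of acceptor sites gives reads with a tagged leader at 69542 sites, of which 51378 have the type gene. The authors label 32276 of these as cis sites and 19102 as trans sites, and the 32276 cis sites are described here. A read was seen at 27611 cis sites in the 15 libraries, and 4665 had none.

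The study drove a tagged leader RNA from tissue promoters in transgenic worms grown at 20 °C, and pulled tagged RNA down with a probe against the tag. The pulled-down RNA was reverse transcribed from the poly(A) tail, amplified in nested PCR rounds without molecular identifiers, cut by Tn5 transposase and sequenced. Body muscle expressed Pmyo-3::tag:SL1(G16C) and was sampled as L1 larvae (1 library), L2 larvae (1), dauer larvae (2), young adults (2) and on day 12 (2). Neurons expressed Prgef-1::tag:SL1(G16C) and were sampled on day 12 (2) and as young adults (2). A mixed-stage muscle culture carried Pmyo-3::tag:SL2(T5A) in 1 library, although another label of that library names SL1. The reference for both tissues was PU2-3::tag:SL1(G16C), labelled as multiple tissues at mixed stages (2 libraries). Worms of day 12, with young adults counted as day 1, grew on 400 µM fluorodeoxyuridine and young adults did not, so age and drug cannot be told apart. Likewise the tissue libraries differ from the multiple tissue libraries in stage as well as in tissue. Dauer larvae came from liquid culture and SDS selection, and all groups carry a transgene, with no library from worms without one.

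Reads in the site table ranged from 164667 to 11544706 per library, the lowest being the day 12 neuron libraries. Replicates of 1 group shared 64.6% and 55.0% of their cis sites with a read in multiple tissues, but 23.5% and 77.5% in dauers and 30.0% and 40.4% in day 12 muscle. The chi-square over its degrees of freedom between replicates was 124 in dauers and 63.5 in day 12 muscle, against 2.37 to 9.59 in the other replicated groups, so the libraries of those pairs stood apart from each other. Genes of the sarcomere took 3.18% to 6.04% of gene-site reads in L1, L2 and young adult muscle, but 0.792% to 1.83% in dauer and day 12 muscle, 0.0228% to 0.107% in neurons and 0.379% and 0.364% in multiple tissues. Of the 30 sarcomere genes with a site, 18 to 22 had a read in the SL1-tag muscle libraries. The myosin gene myo-3, whose promoter drives the muscle tag, had no read in day 12 muscle library 1 and 35 in library 2. Pan-neuronal genes took 1.82% to 5.05% in neurons, 0.221% to 0.495% in SL1-tag muscle and 0.194% and 0.182% in multiple tissues, with a read in 28 to 31 of 33 genes in neurons, 17 to 30 in SL1-tag muscle and 23 in multiple tissues. Members of the list went both ways. The gene unc-64 had 3 to 25 reads in neurons and 33 to 2057 in SL1-tag muscle, while unc-119 had 18 to 96 in neurons and 0 to 51 in SL1-tag muscle. In day 12 neurons most reads of the list lay at a single site, exon 2 of ric-4, as given below. The neuron promoter's own gene, rgef-1, had 0 to 5 reads in the neuron libraries and none elsewhere.

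Neurons put most of their tagged leader reads at cis acceptors, muscle a smaller part and multiple tissues few. The share is the percentage of reads at trans and cis sites of type gene that lay at cis sites. In day 12 neurons it was 61.0% and 59.8%, in young adult neurons 60.1% and 58.7%, and in multiple tissues 3.97% and 3.93%. In muscle it was 31.1% in L1 larvae, 41.3% in L2 larvae, 13.03% and 15.1% in dauers, 14.1% and 14.8% in young adults, and 15.3% and 21.3% on day 12. All 4 neuron libraries were above all 8 SL1-tag muscle libraries, and all of these were above both multiple tissue libraries. The Wilson 95% interval was 60.7% to 61.2% for day 12 neuron library 1, the shallowest library. Such intervals cover counting error only, since PCR copies are not independent molecules.

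**Figure D1:**
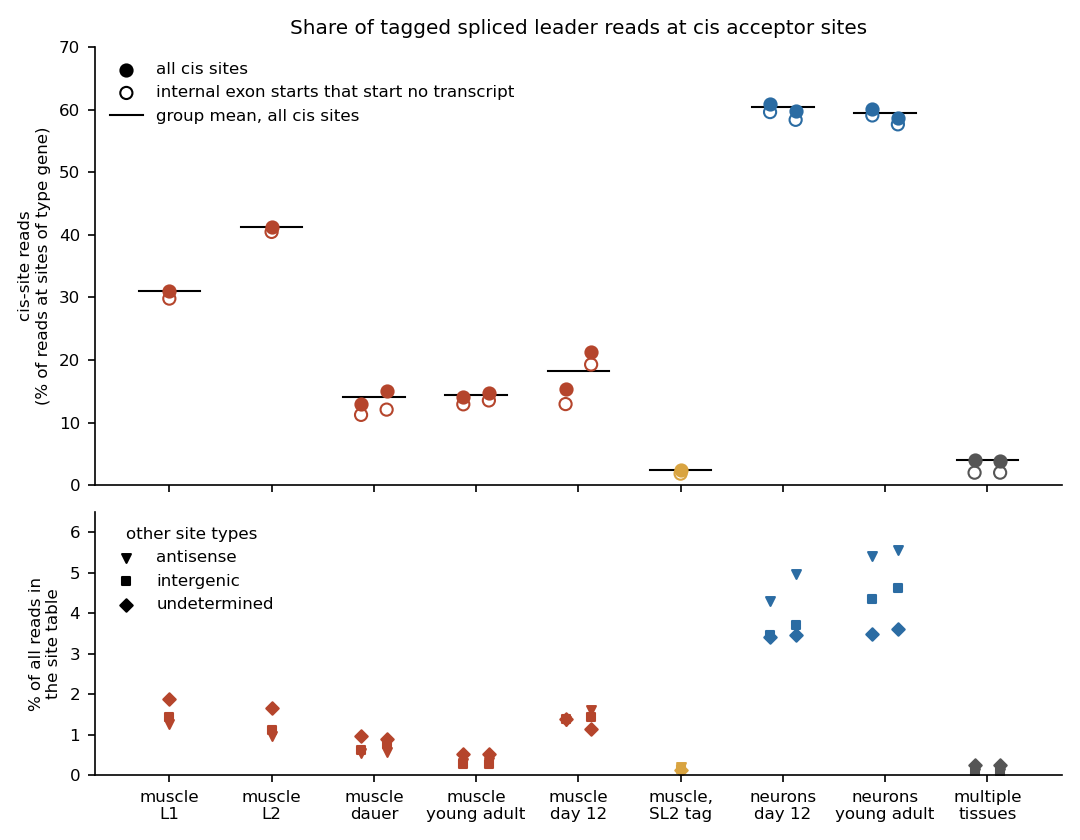
Cis-site reads as a percentage of reads at sites of type gene (top), and antisense, intergenic and undetermined sites as a percentage of all reads in the site table (bottom), with 1 point per library, group means as lines and open circles for internal exon starts that start no annotated transcript. Neuron libraries lie between 58.7% and 61.0%, SL1-tag muscle between 13.03% and 41.3%, and multiple tissues at 3.97% and 3.93%.

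Neurons averaged 59.9% and multiple tissues 3.95%, a difference of 55.9 percentage points (exact two-sided permutation test over 4 and 2 libraries, p = 0.0667, the smallest p that this design allows). Muscle averaged 20.7% over its 8 SL1-tag libraries against 3.95% in multiple tissues, a difference of 16.8 points (exact permutation p = 0.0667, where the smallest possible p is 0.0222). With young adults and day 12 as strata, muscle averaged 16.36% and neurons 59.9%, a difference of -43.5 points (exact permutation p = 0.0556, the smallest possible). Day 12 averaged 39.3% and young adults 36.9% over both tissues, a difference of 2.43 points (exact permutation p = 0.111) that was 0.946 without day 12 muscle library 2. Adjusted over these 4 comparisons by the Benjamini-Hochberg method, p was 0.0889 for each of the 3 tissue comparisons and 0.111 for age. None of these p-values passes 0.05. In the comparison of muscle with multiple tissues the number of libraries would have allowed it, while in the other 3 it did not. The size of the gaps can be read beside the spread of replicates, which was 0.0261 to 4.20 points (SD, n = 2 per group). The p-values measure the spread between libraries, which are labelled as biological replicates within a group. Both comparisons with multiple tissues pooled the stages or ages of a tissue without strata. The spread there is between stages or ages as well as between replicates. Because RNA was pooled from whole worms, fewer cells of a type and less RNA per cell cannot be told apart in any of these comparisons.

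Reads outside sense gene sites followed the same order of tissues. Antisense sites took 4.31% to 5.57% of all reads in neurons, 0.287% to 1.61% in SL1-tag muscle and 0.0509% and 0.0490% in multiple tissues. Intergenic sites took 3.45% to 4.62% in neurons, 0.264% to 1.44% in SL1-tag muscle and 0.0761% and 0.0776% in multiple tissues. Whether these reads and the cis-site reads share a source was not tested.

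How many kinds of cis site were seen depended on how depth was made equal. With every library reduced by calculation to 146273 gene-site reads, the number of cis sites with a read would be 9275 and 11344 in day 12 neurons, 4232 and 4343 in young adult neurons and 1008 and 992 in multiple tissues. In muscle it would be 2164 in L1, 1744 in L2, 3014 and 1714 in dauers, 1540 and 1517 in young adults, and 3179 and 2245 on day 12. These numbers hold the cis share within them, since at that depth neurons have many more cis-site reads than multiple tissues. With every library reduced to 84042 cis-site reads instead, a depth chosen after seeing the data, it would be 9064 and 11175 in day 12 neurons, 4187 and 4316 in young adult neurons and 3999 and 3892 in multiple tissues. In SL1-tag muscle it would then be 1825 to 5348. Day 12 neurons stayed above all other libraries at both depths, while young adult neurons and multiple tissues came close to each other at equal cis-site reads. Trans sites at 146273 gene-site reads numbered 5615 and 6307 in day 12 neurons, 3456 and 3526 in young adult neurons, and 5398 and 5348 in multiple tissues. Single reads were common in the day 12 neuron libraries, where 3546 of 9275 and 3256 of 13792 detected cis sites had 1 read. In young adult neurons 356 of 5182 and 443 of 5608 did.

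The typical gene differed too. Among genes with at least 100 reads and a trans site, the median share of a gene's reads at its cis sites was 81.4% and 70.9% in day 12 neurons, 37.8% and 33.1% in young adult neurons, and 0% in every muscle and multiple tissue library. Genes with over 50% of their reads at cis sites made up 54.6% and 53.0% in day 12 neurons, 47.6% and 47.3% in young adult neurons, and 3.43% and 3.66% in multiple tissues. In SL1-tag muscle that part was 7.598% to 21.1%. The neuron medians rest on 174 and 330 genes on day 12 and on 762 and 788 in young adults, and the genes that reach 100 reads differ between libraries.

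Cis-site reads covered much of the gene set thinly. A cis site was listed for 14996 genes, and 13841 of them had a cis-site read in the 14 SL1-tag libraries, with 6679 of these genes having a single cis site. The gene with most was unc-49, a GABA receptor gene, with 13. Of the 27599 cis sites read in those libraries, 14672 were read in 1 library only, 12795 in 2 to 13, and 132 in all 14. Trans sites were more widely shared, with 968 of 17279 read in all 14. By annotation 27243 cis sites lay in coding sequence, 419 in 5′ untranslated and 121 in 3′ untranslated sequence, 1110 in noncoding transcripts, and the table lists 853 in pseudogenes. A trans site was listed for 9915 of the genes with a cis site, and 5081 had cis sites only.

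Overlap of detected sites varied between groups. Young adult muscle had 1601 cis sites read in both libraries and young adult neurons 3352, and 729 were common to them, 45.5% of the muscle sites and 21.7% of the neuron sites. Day 12 neurons shared 2318 sites with young adult neurons, 44.7% of the day 12 sites and 69.2% of the young adult sites. Day 12 muscle shared 582 sites with young adult muscle, 54.2% of the day 12 sites and 36.4% of the young adult sites, and dauer muscle shared 773 with it, 50.1% of the dauer sites and 48.3% of the young adult sites. Young adult muscle and multiple tissues shared 530, which is 33.1% of the muscle sites and 19.9% of the multiple tissue sites. These shares move with depth and were not tested.

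Multiple tissues differed from muscle and neurons in the kind of site read. Exon 2 took 79.2% of cis-site reads in each multiple tissue library, against 61.5% and 57.4% in day 12 neurons and 57.3% and 56.8% in young adult neurons. In muscle exon 2 took 38.1% in L1, 29.1% in L2, 40.0% and 47.5% in dauers, 23.5% and 22.8% in young adults, and 41.7% and 34.7% on day 12. In muscle the last exon of the gene took 28.1% in L1, 42.6% in L2, 22.1% and 16.50% in dauers, 46.1% and 46.9% in young adults, and 27.7% and 39.8% on day 12. It took 21.03% to 26.5% in neurons and 13.8% and 14.3% in multiple tissues, so dauer muscle lay within or below the range of neurons and the other muscle libraries above it. The day 12 muscle libraries were far apart, while both young adult groups and multiple tissues had close replicates.

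Some sites with the cis label are starts of another annotated transcript of the gene, and some match no exon start. Positions are those of the deposited table, whose genome build is not given in the sources used here. When compared with the exon starts of the WBcel235 annotation, 29245 cis sites (90.6%) fell on an exon start of a gene, and 244 on the first exon of another transcript of their own gene. Those 244 took 29.7% and 28.9% of cis-site reads in multiple tissues, against 2.03% to 17.4% in SL1-tag muscle and 1.83% to 2.07% in neurons. Sites on no exon start took 19.7% and 20.0% in multiple tissues, 1.33% to 9.12% in SL1-tag muscle and 1.64% to 2.92% in neurons. With internal exon starts alone, the cis share was 57.6% to 59.6% in neurons, 11.2% to 40.5% in SL1-tag muscle, and 1.99% in each multiple tissue library. That class held 49.2% and 49.7% of cis-site reads in multiple tissues, against 94.2% to 95.98% in neurons. Genes for which no trans site is listed took 48.1% and 47.8% of the cis-site reads in multiple tissues, 18.6% to 33.4% in SL1-tag muscle and 22.6% to 28.9% in neurons. The X chromosome took 12.4% to 15.5% of cis-site reads in neurons, 6.46% to 12.56% in SL1-tag muscle and 1.15% and 1.103% in multiple tissues. Of trans-site reads it took 7.62% to 11.4% in SL1-tag muscle and 1.38% and 1.36% in multiple tissues. In day 12 neurons it took 13.5% and 14.1% of trans-site reads, beside 12.4% and 13.4% of cis-site reads. In young adult neurons it took 10.05% and 9.86% of trans-site reads, below the 15.5% and 15.0% of cis-site reads.

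**Figure D2:**
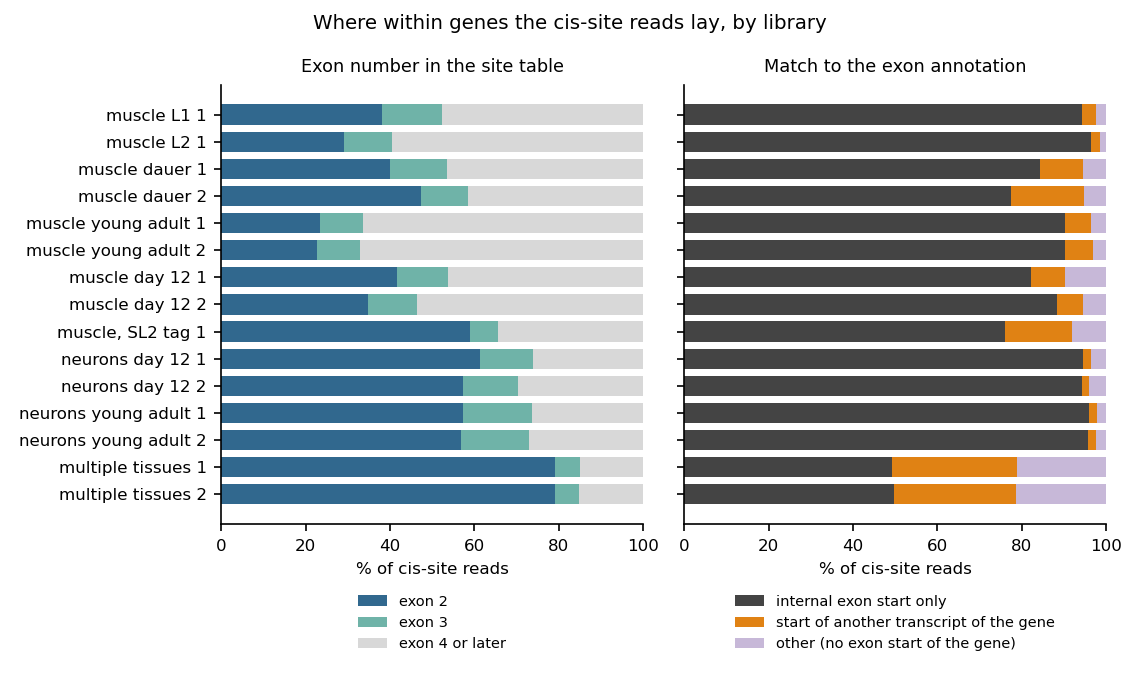
Cis-site reads of each library, in percent, by exon number in the site table (left) and by match to the exon annotation (right), with 1 bar per library. Exon 2 takes 79.2% in the multiple tissue libraries and 22.8% and 23.5% in young adult muscle, and the class of internal exon starts takes 94.2% to 95.98% in neurons.

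Reads lay after long introns. Of the annotated internal acceptors in the genes of the site table, 24631 with a cis-site read had a median preceding intron of 397 bases, and 76953 without a read had one of 54 bases. Among acceptors after introns under 100 bases 9.88% had a read. That part was 32.8% from 100 up to 500 bases, 50.8% from 500 up to 1000, 62.7% from 1000 up to 5000 and 62.2% for 5000 or more. At a minimum of 10 reads the same 5 classes gave 2.26%, 12.1%, 24.5%, 40.1% and 54.7%. The order of the 4 classes up to 5000 bases was the same at exon 2, at exon 3 and at later exons. From 5000 bases on the part with a read was lower at exon 2 (56.8% against 61.8% in the class before it) and at exon 3 (50.0% of 46 acceptors against 64.6%), and higher at later exons (77.3% against 62.7%). A gene with long introns can be expressed at another level than a gene with short ones, and expression was not held equal in these classes.

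**Figure D3:**
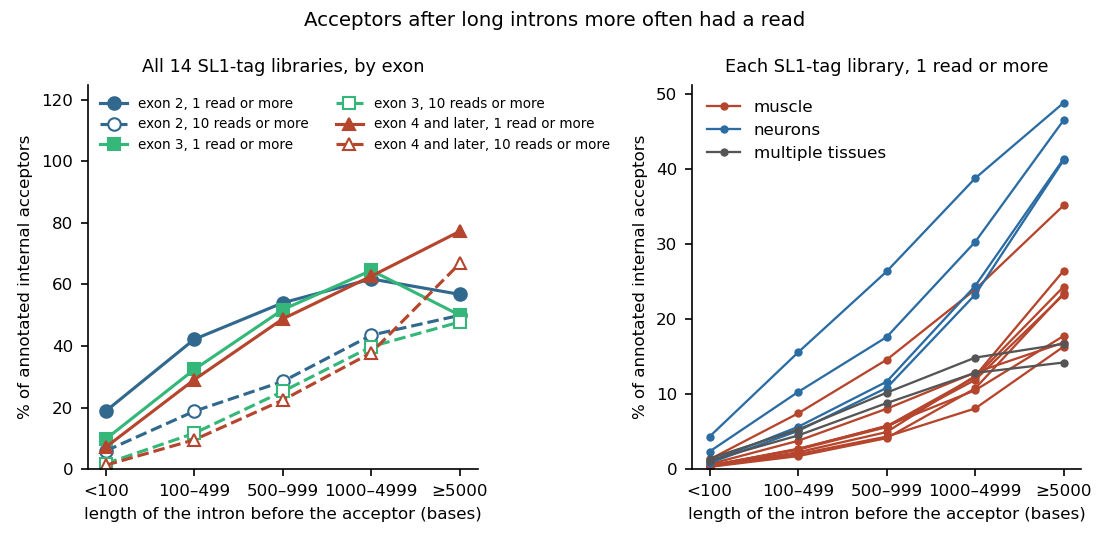
Percentage of annotated internal acceptors with a tagged leader read, by length of the preceding intron in bases, over the 14 SL1-tag libraries by exon number (left) and in each library (right). The percentage is lowest under 100 bases in every library, where 9.88% of acceptors had a read over all 14, and was 62.7% from 1000 up to 5000 bases.

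Within genes the choice leaned the same way. Among genes with at least 3 annotated internal acceptors and 10 cis-site reads, the most-read cis site stood after the gene's longest intron in 60.9% and 57.5% of genes in day 12 neurons, 56.6% and 56.5% in young adult neurons, and 51.8% and 51.3% in multiple tissues. In SL1-tag muscle it did so in 44.95% to 52.5%. The median number of acceptors in these genes was 6 or 7. An intron length is known only for cis sites at internal exon starts of their gene, and the next percentages are of the reads at those sites. Introns of at least 1000 bases preceded 63.9% and 59.1% of these reads in day 12 neurons, 64.9% and 66.7% in young adult neurons and 20.7% and 21.1% in multiple tissues. In muscle they preceded 64.8% in L1, 68.03% in L2, 37.5% and 44.6% in dauers, 24.7% and 25.2% in young adults, and 34.1% and 44.6% on day 12. Single sites weighed on the values of larval and young adult muscle, as given below.

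A few sites carried much of the signal in L2 and young adult muscle. In muscle the top 10 sites held 33.5% of cis-site reads in L1, 50.9% in L2, 27.9% and 35.9% in dauers, 48.1% and 48.3% in young adults, and 13.2% and 29.6% on day 12. In neurons they held 23.9% and 18.7% on day 12 and 24.3% and 22.9% in young adults, and in multiple tissues 31.3% and 32.0%, so the muscle libraries lay on both sides of the other groups. The most-read site over the SL1-tag libraries was exon 6 of 6 of Y37E3.11, first base I:2085251 on the plus strand, after an intron of 700 bases. It had 5159 reads in L1, 45144 in L2, 18810 and 71532 in dauer, 41950 and 102044 in young adult and 1426 and 32260 in day 12 muscle. It had 47 and 69 reads in day 12 neurons, 61 and 69 in young adult neurons and 242 and 353 in multiple tissues. In young adult muscle this site held 25.8% and 25.7% of all cis-site reads. It also held 99.4% and 99.3% of the reads of the gene there, with 67 and 83 trans-site reads in the gene.

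Next came the last exon of rpc-2, which encodes a subunit of RNA polymerase III (III:5564506, plus strand, intron of 1603 bases). It had 40108 reads in L1 and 339285 in L2 muscle, 344 and 842 in dauers, 3606 and 10698 in young adult and 288 and 32493 in day 12 muscle. Neurons had 19 and 22 reads there on day 12 and 0 and 8 as young adults, and multiple tissues 0 and 1. The 2 larval libraries thus stood far above the others, and the site held 26.5% of all cis-site reads of L2 muscle. The exon begins 519 bases before mlc-3, a gene for a myosin light chain, which lies downstream on the same strand. Last exons within 1000 bases of the next gene on their strand took 32.8% of cis-site reads in L2 and 17.6% in L1 muscle, against 3.84% to 15.5% in the other SL1-tag muscle libraries, 6.998% to 10.6% in neurons and 5.35% and 5.59% in multiple tissues. The rpc-2 site belongs to this class and alone held 12.56% of all cis-site reads in L1 and 26.5% in L2. Most of the class in the larvae was thus that single site.

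Exon 7 of 9 of C15F1.5 was a muscle and dauer site, 15 bases from a trans site of the same gene (II:6968347, minus strand). It had 666 reads in L1, 6291 in L2, 24649 and 165494 in dauer, 10733 and 26721 in young adult and 3470 and 24088 in day 12 muscle. Neurons had 7 and 12 reads on day 12 and 2 and 21 as young adults, and multiple tissues 93 and 150. At such a short distance the cis label depends on the position that the authors assigned to a read. Exon 2 of C32D5.8 was highest in dauer library 2, with 211990 reads against 10558 in library 1, and it is also the start of another transcript.

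Exon 2 of 5 of Y55B1BR.6 (III:459690, minus strand) follows an intron of 3995 bases and was read in every tissue. It had 12610 reads in L1, 68146 in L2, 8027 and 43582 in dauer, 1443 and 3020 in young adult and 346 and 9173 in day 12 muscle, and 600 and 1123 in day 12 and 19607 and 21733 in young adult neurons. Multiple tissues had 1 and 4 reads. No trans site is listed for that gene.

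Among the most-read sites, those of casy-1 and ric-4 were read mainly in neurons. Exon 2 of 5 of casy-1, a calsyntenin gene of the cadherin family, follows an intron of 2706 bases (II:5947315, minus strand). It had 7495 and 9806 reads in day 12 neurons and 10493 and 12282 in young adult neurons, against 3 to 351 in the muscle libraries other than dauer library 2, which had 0, and 2 and 1 in multiple tissues. Exon 2 of 5 of ric-4, the SNAP-25 gene whose protein acts in fusion of synaptic vesicles, follows an intron of 3953 bases (V:10262408, minus strand). It had 5727 and 5201 reads on day 12 and 3456 and 3827 in young adult neurons, at most 21 in any muscle library and 0 in both multiple tissue libraries. For casy-1 the site held 96.8% and 96.7% of the gene's reads on day 12 and 96.1% and 97.01% in young adult neurons, and for ric-4 it held 96.2% and 94.4% on day 12 and 83.2% and 82.1% in young adults.

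The multiple tissue libraries had their own leading sites. Exon 2 of iff-1, a germline gene related to translation factor eIF5A, had 7205 and 12588 reads there, 3 and 5 in day 12 neurons, 11 and 0 in young adult neurons and at most 92 in muscle. It begins 174 bases from the gene's trans site, which had the remaining 2 of 7207 reads of iff-1 in multiple tissue library 1. The core spliceosome genes snr-6 and snr-7, with 2830 and 4591 reads and 1759 and 2973 reads at exon 2, and ned-8, a ubiquitin-like modifier, with 2614 and 4303, also led in multiple tissues. Of these last 3 sites, snr-6 falls on no annotated exon start, and snr-7 and ned-8 are starts of another transcript.

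**Figure D4:**
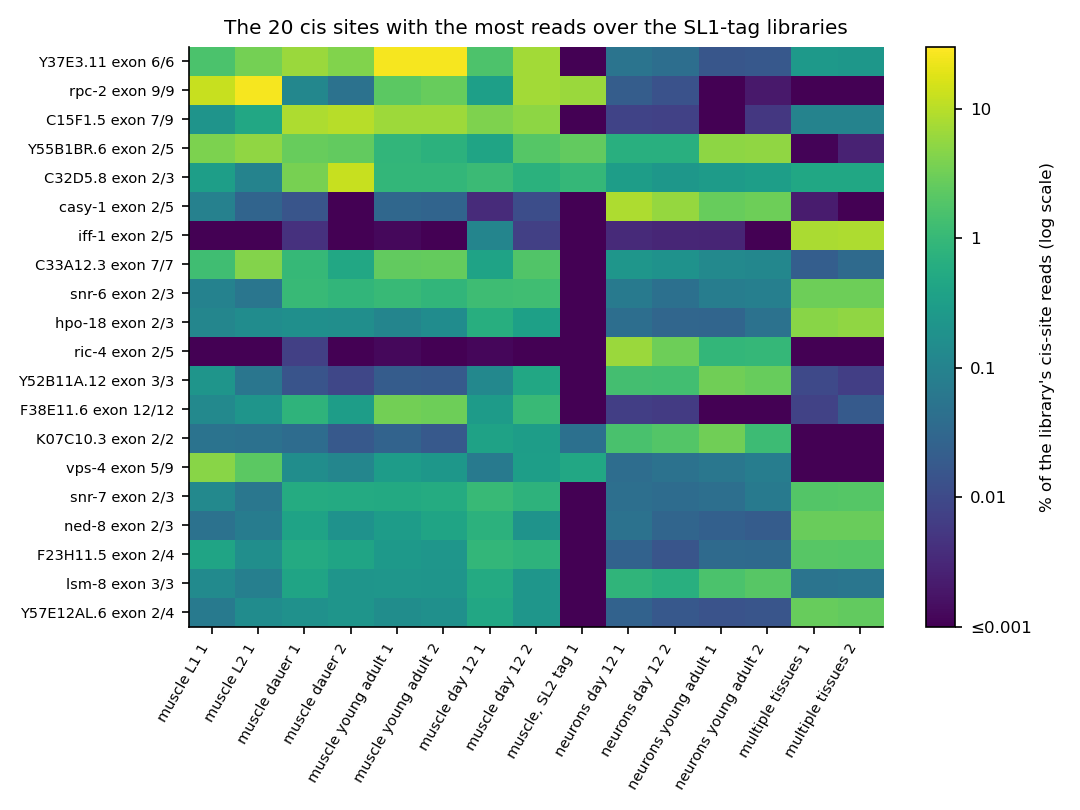
The 20 cis sites with the largest mean percentage of cis-site reads over the SL1-tag libraries (rows, with exon and total exons) in each of the 15 libraries (columns), coloured by the percentage on a log scale that ends at 0.001 or less. Y37E3.11 exon 6 reaches 25.8% in young adult muscle, rpc-2 exon 9 reaches 26.5% in L2 muscle, and casy-1 and ric-4 are bright in the 4 neuron libraries.

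Some genes gave nearly all their leader reads at cis sites although a trans site is listed for them. Among 1372 genes with a trans site and at least 100 reads in at least 7 SL1-tag libraries, the median over genes of the mean cis share was 0.521%. It was under 1% for 773 genes and over 50% for 159. The 10 highest were gpa-1 (a G protein alpha subunit), phy-3 (a prolyl hydroxylase), T06D8.3, rpoa-1 (an RNA polymerase I subunit), acbp-1 (an acyl-CoA-binding protein), F49E8.2, abts-4 (an anion transporter), C32D5.8, F40F11.3 and dnc-4 (a dynactin subunit) with mean shares of 99.987% to 100%. For abts-4 all 1534 and 1259 reads in young adult neurons, all 83 and 257 in young adult muscle and all 3886 in L1 muscle lay at cis sites, while multiple tissues had 0 and 2 reads in the gene. For acbp-1 the site is exon 2, which starts another transcript, and it held all 558 and 883 reads in multiple tissues, so the 10 genes are of both kinds.

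Whether a cis site took another part of its gene's reads in different tissues was tested for every trans and cis site in genes with several tested sites (edgeR diffSpliceDGE after a quasi-likelihood fit of 14 SL1-tag libraries, Benjamini-Hochberg over 11727 sites, called at an adjusted p under 0.05). Of the cis sites, 6639 passed the filter on low reads and were tested. In young adult muscle against multiple tissues, 10 cis sites took a larger part and 0 a smaller, where 0.0853% of all tested sites were called. In young adult neurons against multiple tissues, 34 took a larger part and 0 a smaller, where 0.367% of all were called, 0.298% larger and 0.0682% smaller. In young adult muscle against young adult neurons, 1 took a larger part and 6 a smaller, where 0.0938% of all were called, 0.0426% larger and 0.0512% smaller. Library values of the groups were fully separate at 10 of the 10, 33 of the 34 and 7 of the 7. Separation was counted among called sites only, where the call itself favours it, so it adds no support. These counts depend strongly on the fit: without any 1 of the 4 libraries compared they were 0, 0 to 15 and 0 to 2, and without dauer library 2 and the day 12 muscle libraries, a setting added after seeing the data, they were 188, 773 and 717.

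The introns before the called sites had a median of 2580.5 bases for the 10 muscle sites and 949.5 for the 34 neuron sites, against 696 for all tested cis sites. Exon 4 of hip-1, a gene for an HSP70-interacting protein, follows an intron of 5539 bases. It held 88.6% (304 of 343 reads) and 88.3% (610 of 691) of the gene's reads in young adult muscle and 100% of 64 and of 89 reads in young adult neurons, against 0 of 582 and 0 of 822 reads in multiple tissues, which allow up to 0.515% and 0.365% (edgeR adjusted p = 0.01002 for muscle and 0.00332 for neurons). Both tissues thus had most hip-1 reads at exon 4, and multiple tissues had theirs at other sites of the gene. Exon 3 of kup-1 held 58.3% and 59.1% in young adult muscle and 86.2% and 87.3% in young adult neurons, against 0 of 245 and 0 of 420 reads in multiple tissues (edgeR adjusted p = 0.0266 and 0.00438), which allow up to 1.22% and 0.714%. Exon 5 of T10B5.3, exon 2 of lin-24, exon 10 of T01G9.2 and exon 3 of tag-163 were called too, with 57.3% to 80.2% in young adult muscle and 0% to 0.213% in multiple tissues (edgeR adjusted p = 0.0461 each).

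Neurons and muscle differed at sites in genes that muscle reads elsewhere. Exon 4 of rsp-6, an SR splicing factor gene, held 0 of 477 and 0 of 1615 reads in young adult muscle, which allow up to 0.629% and 0.186%, against 95.2% and 98.2% in young adult neurons (edgeR adjusted p = 0.0115), and 0 of 999 and 0 of 1776 in multiple tissues, which allow up to 0.3003% and 0.169%. Exon 2 of istr-1 held 0 of 298 and 0 of 600 reads in young adult muscle, against 90.3% and 93.8% in young adult neurons (edgeR adjusted p = 0.00901). The last exon of chdp-1 held 0 of 849 and 0 of 2008 reads in young adult muscle, against 94.6% and 86.3% in young adult neurons (edgeR adjusted p = 0.00601). The site that went the other way was exon 7 of Y56A3A.7, with 76.7% (522 of 681) and 71.1% (1088 of 1531) in young adult muscle, against 0.233% (12 of 5161) and 0 of 6163 in young adult neurons (edgeR adjusted p = 0.0163). The remaining called sites with a smaller part in muscle were exon 2 of pbo-1, exon 2 of T05G5.1 with 46 and 25 neuron reads in the gene, and exon 3 of Y37E3.11 with 3 and 20 neuron reads at the site. For each of these 6 sites both young adult muscle libraries had no read, which allows a part of up to 0.00292% to 1.01% of the gene's reads.

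**Figure D5:**
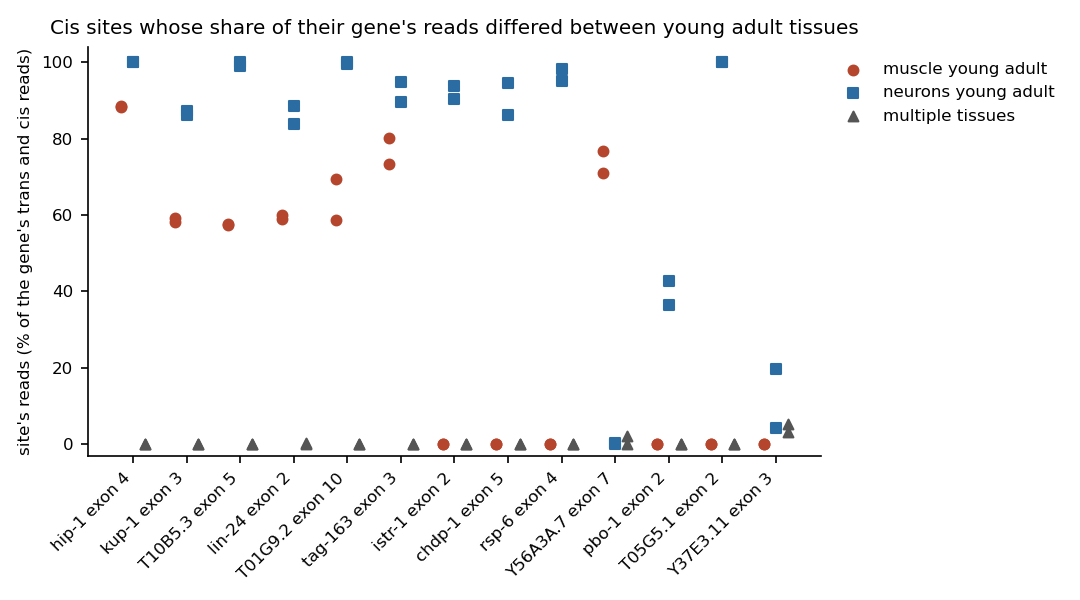
Reads at named cis sites as a percentage of the gene's trans and cis reads, 1 point per library, in young adult muscle, young adult neurons and multiple tissues. hip-1 exon 4 is at 88.6% and 88.3% in muscle, 100% in neurons and 0% in multiple tissues, and Y56A3A.7 exon 7 is high in muscle only, at 76.7% and 71.1%.

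Levels of single sites were compared too, also for genes without a trans site (edgeR quasi-likelihood test, 22752 sites of the table tested, 8773 of them cis sites that passed the filter on low reads out of the 27599 with a read). Tests and log2 differences used edgeR's TMM scaling. CPM values are a site's reads scaled by its library's total in the site table, without TMM. Bounds on fold differences, and medians with sites set to a floor, rest on CPM below and move with the scaling. In young adult muscle against multiple tissues 247 cis sites were higher and 17 lower, where 3.17% of all sites were called, 2.28% higher and 0.897% lower. A site with reads in only 1 group passes that filter through the group where it is high. In young adult neurons against multiple tissues 1243 cis sites were higher and 56 lower, where 15.8% of all sites were called, 9.78% higher and 6.05% lower. Library values were fully separate at 247 of the 247 and 17 of the 17 muscle sites, and at 1232 of the 1243 and 56 of the 56 neuron sites. Here too only called sites were counted, so the separation adds no support to the calls. In neurons trans sites went the other way, with 531 of 10044 higher and 1311 lower. The split depends on scaling: with DESeq2 size factors the log2 differences of cis sites in neurons against multiple tissues shifted by a median of -1.48 (6000 cis sites with a fitted difference other than 0), 598 cis sites were higher and 90 lower, and over all sites 1032 were higher and 2227 lower, where the main scaling gave 2225 and 1377. For muscle size factors gave 185 higher and 14 lower cis sites. Without young adult muscle library 1 the muscle count was 97 and without library 2 it was 127, in place of 264, with 0 lower in each. Without any 1 of its 4 libraries the neuron count was 612 to 757, in place of 1299. Without dauer library 2 and the day 12 muscle libraries, a choice made after seeing the data, the counts were 1037 and 3234.

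Sites that were higher lay after longer introns than those tested. The median intron was 1175 bases for the 247 muscle sites and 1181 for the 1243 neuron sites, against 641 for all tested cis sites. The sites that were lower were of another kind, with 76.5% of 17 in muscle and 76.8% of 56 in neurons at exon 2, against 38.6% of all tested cis sites. Of the lower sites 23.5% in muscle and 32.1% in neurons started another transcript of the gene, against 1.99% of all tested.

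The smallest p in muscle belonged to Y55B1BR.6 exon 2, with 1236 and 1112 CPM in young adult muscle against 0.436 and 1.05 in multiple tissues, a log2 difference of 10.22 ± 1.07 (SE, edgeR adjusted p = 3.12e-05). C08G9.1 exon 2 had 293 and 325 CPM in young adult muscle, 3116 and 3225 in young adult neurons and 0 reads in both multiple tissue libraries, which makes it at least 295-fold higher in muscle and at least 3025-fold higher in neurons against a floor of 3 reads per library (edgeR adjusted p = 3.12e-05 and 1.06e-06). Y37E3.11 exon 6 had 35936 and 37567 CPM in young adult muscle against 105 and 92.9 in multiple tissues, a log2 difference of 8.31 ± 0.94 (SE, edgeR adjusted p = 3.12e-05). All 3 sites had higher values in both muscle libraries than in either multiple tissue library. D2096.7 exon 3 (521 and 486 CPM in muscle), vps-4 exon 5, in a gene for an ATPase of the ESCRT pathway (421 and 339), and T06D8.3 exon 3 (1886 and 2016) complete the muscle set, with 0 reads in multiple tissues for vps-4 and T06D8.3 and 3 and 4 reads for D2096.7. T06D8.3 had 1 and 0 reads in young adult neurons, where C08G9.1 had 2281 and 2558.

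In neurons the leading higher sites were K07C10.3 exon 2, Y55B1BR.6 exon 2, nlp-15 exon 2, C08G9.1 exon 2, Y52B11A.12 exon 3 and R01H2.7 exon 2 (edgeR adjusted p from 2.45e-07 to 1.20e-06). K07C10.3 had 12189 and 4774 reads in young adult neurons and none in multiple tissues, at least 10815-fold higher, and the site is noncoding and 8 bases from a trans site. R01H2.7 had 2237 and 2568 reads in young adult neurons, 863 and 965 in day 12 neurons and none in multiple tissues, at least 3002-fold higher, and at most 26 reads in any muscle library. For nlp-15, a neuropeptide precursor gene with an intron of 5892 bases before the exon, reads were 3865 and 3750 in young adult neurons against 0 and 1 in multiple tissues. Muscle was not free of nlp-15 reads, with 4841 in L1, 4526 in L2 and 27 and 60 in young adults.

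The lower sites are led by genes with few or no reads in the tissue. W06B4.1 exon 2 had 0 reads in both young adult muscle libraries against 1639 and 2404 in multiple tissues, at least 366-fold lower (edgeR adjusted p = 0.00934). K03H1.7 exon 2 was at least 188-fold lower in muscle, inx-14 exon 2, in a gap junction gene of the germline, at least 96.4-fold lower, C08E3.13 at least 81.0-fold and skr-14 at least 66.1-fold lower. The iff-1 site had 2 and 0 reads in young adult muscle against 7205 and 12588 in multiple tissues. Not all of these sites were silent elsewhere, since C08E3.13 had 497 and 821 reads in young adult neurons. In young adult neurons Y67H2A.2 exon 4 was at least 83.0-fold lower, K05C4.7 exon 2 at least 39.6-fold, C24G6.8 exon 2 at least 27.6-fold and taf-11.2 exon 2 at least 14.3-fold lower, each with 0 reads in both neuron libraries, and K03H1.7 and iff-1 had 1 and 0 and 11 and 0 reads. Each of the 6 lower calls in muscle was lost when either young adult muscle library was left out, and their adjusted p then reached 0.330 at most over all alternatives.

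Of the 12 gene lists, neuropeptide genes had the largest part of cis sites called higher in level in neurons. In young adult neurons against multiple tissues, 28 of their 54 tested cis sites were higher and 0 lower, in a table where 1243 of 8773 cis sites (14.2%) were higher. Their median log2 difference was 8.84 as fitted and 5.05 with sites at 0 set to the floor of 3 reads, against 1.45 and 1.91 for all tested cis sites. With size factors 17 were higher, and 17 to 19 when 1 library was left out. flp-5 exon 2, after an intron of 1630 bases, had 1716 and 2537 reads in young adult neurons and 0 and 0 in multiple tissues. nlp-40 exon 3 is a case with reads in several groups, with 167 and 195 in young adult neurons, 968 and 2273 in young adult muscle and 2 and 14 in multiple tissues. Trans sites of these genes were higher too, with 34 of 67 higher and 1 lower. These calls are in level only. In the part of a gene's reads, 0 of the list's 51 tested cis sites were called in young adult neurons against multiple tissues. Their median log2 difference there was -0.00838.

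Pan-neuronal genes had 11 of 48 cis sites higher (22.9%, beside 14.2% of all tested cis sites) and 0 lower in young adult neurons against multiple tissues. Among the higher were ric-4, cpx-1 (complexin), sng-1 (synaptogyrin), snn-1 (synapsin), rbf-1 (rabphilin), ptl-1 (a tau-like protein) and unc-119. The median log2 difference of the 48 was 7.53 as fitted and 3.04 at the floor. With size factors the count was 3, where 598 of all 8773 tested cis sites were higher, so the part was not above that of all cis sites. When 1 library was left out it was 3 to 5, where 597 to 723 of all tested cis sites were higher. Genes for splicing factors had 9 of 52 cis sites higher (17.3%, beside 14.2% of all tested cis sites) and 0 lower, including teg-4, rsp-6, uaf-1 (the large U2AF subunit), unc-75 and mbl-1 (muscleblind). The count was 4 higher and 2 lower with size factors, and 4 higher whenever 1 library was left out. At their trans sites 2 of 45 were higher and 19 lower. Ribosomal protein genes had 1 of 39 cis sites higher, or 0 higher and 1 lower with size factors, and 0 of 92 trans sites higher, with 73 trans sites lower.

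In young adult muscle against multiple tissues, 3 of 48 sarcomere cis sites were higher (6.25%, against 2.82% of all tested cis sites), in mlc-3, act-4 (actin) and unc-22 (twitchin), and the count was 0 when either young adult muscle library was left out and 1 with size factors. The median log2 difference of the 48 was 6.14 as fitted and 1.24 at the floor, and over all cis sites it was 0. By comparison 10 of 20 sarcomere trans sites were higher, where 239 of all 10044 tested trans sites were. Of 43 cis sites in genes of the dense body and M-line, which anchor the sarcomere, 2 were higher (4.65%), in unc-112 (kindlin) and zyx-1 (zyxin), with 1 or 2 higher when 1 library was left out, and 9 of 28 trans sites were. In neurons 6 of those 43 cis sites were higher (13.95%, close to the 14.2% of all tested cis sites), in unc-112, pxl-1 (paxillin), zyx-1, scpl-1, lim-9 and unc-96. The count was 3 with size factors and 3 whenever 1 library was left out. For pxl-1 exon 2 neurons had 1194 and 1085 reads as young adults, young adult muscle 0 and 16, and multiple tissues none. In the other lists 3 of 54 neuropeptide sites were higher in muscle (nlp-15, nlp-40 and flp-15), 1 of 48 pan-neuronal sites (unc-44, ankyrin), 1 of 12 germline sites (mex-3) and 1 of 52 splicing sites (teg-4). None was higher among the sites of muscle excitation (42), ribosomal proteins (39), glycolysis and citrate cycle (24), cuticle (20), chaperones and proteasome (16) and intestine (1). In neurons 3 of 42 sites of muscle excitation were higher, 1 of 24 of glycolysis and citrate cycle, 2 of 20 of cuticle, 2 of 16 of chaperones and proteasome, and 0 of 1 of intestine, all below the 14.2% of all tested cis sites. With size factors muscle excitation, cuticle and chaperones and proteasome had 0. Cuticle also had 0 whenever 1 library was left out, while muscle excitation then had 0 to 2 and chaperones and proteasome 0 or 1. Also 1 of 12 germline sites (mex-3) and 1 of 48 sarcomere sites (act-4) were higher in neurons. No tested cis site of the 12 lists was lower in either tissue in the reported fit, but with size factors 1 site of ribosomal proteins, 1 of glycolysis and citrate cycle and 2 of splicing factors were lower in neurons.

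Gene groups differed widely in how much of their leader signal lay at cis sites. Ribosomal protein genes had 2.18% to 2.25% of their reads at cis sites in neurons, 0.0637% to 0.544% in SL1-tag muscle and 0.0175% and 0.0188% in multiple tissues. Splicing factor genes had 69.3% to 79.6% in neurons, 17.1% to 43.6% in SL1-tag muscle and 20.7% and 21.1% in multiple tissues. Most of the list's 4670 and 7679 cis-site reads in multiple tissues lay at the snr-6 and snr-7 sites given above. The snr-6 site falls on no annotated exon start, and the snr-7 site starts another transcript. Sarcomere genes had 33.97% to 48.3% in neurons, where they had 145 to 265 reads in all, 0.827% to 29.2% in SL1-tag muscle and 0.104% and 0.102% in multiple tissues. Pan-neuronal genes had 81.8% and 70.8% in day 12 neurons, 37.8% and 34.2% in young adult neurons and 1.53% and 1.71% in multiple tissues. In muscle they had 58.5% in L1, 67.6% in L2, 13.6% and 7.23% in dauers, 9.78% and 15.2% in young adults, and 27.4% and 63.1% on day 12, so 3 muscle libraries were above the young adult neurons. A single site, ric-4 exon 2, had 5727 of the 6038 and 5201 of the 5620 cis-site reads of the list on day 12. Neuropeptide genes had 43.8% and 37.3% in day 12 neurons and 28.6% and 26.98% in young adult neurons. Each neuron value lay below the cis share of its whole library. The list had 31.1% and 33.7% in young adult muscle, above young adult neurons. It had 15.3% and 32.4% in day 12 muscle, below day 12 neurons, and 5.66% and 6.42% in multiple tissues. Germline genes reached 86.5% in L1 and 95.3% in L2 muscle, where exon 2 of mex-3, an RNA-binding protein gene, held 4102 of 4155 and 25193 of 25237 of their cis-site reads, against 0.311% and 0.3002% in multiple tissues.

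The number of sites called with age depended on the fit. In day 12 against young adult muscle, 1 cis site was higher in level and 0 lower, where 0.0396% of all sites were called, 0.0264% higher and 0.0132% lower. Without the filter on low reads 154 were higher and 30 lower. The site called in the filtered fit was exon 2 of flp-5, with 56 and 136 reads in day 12 muscle against 0 and 0 in young adult muscle, at least 43.2-fold higher (edgeR adjusted p = 0.0163, up to 0.698 over the alternatives), and the call was lost when any of the 4 libraries was left out. Neurons had 560 and 980 reads at that site on day 12 and 1716 and 2537 as young adults. In the part of a gene's reads 0 cis sites were called in day 12 against young adult muscle, 0 in day 12 against young adult neurons and 0 in dauer against young adult muscle, where 0.0% of all sites were called in each. At an unadjusted p under 0.05, edgeR gave 464, 64 and 325 of 6639 tested cis sites. With no difference and a well-calibrated fit, a part of about 0.05 of the tested sites would pass, which only the first count exceeds. Young adult muscle against multiple tissues gave 330, also below that part, although 10 of its cis sites were called. A count below that part therefore does not show that no site differs. At an adjusted p under 0.05, limma's diffSplice gave 36, 0 and 195 calls, and DESeq2 gave 42, 3 and 23. The day 12 muscle and dauer replicates stood apart from each other, as described, and differences at single sites were not detectable in that fit.

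Stages of muscle differed in which sites led, as values of 1 or 2 libraries each and without a test for the larvae. Exon 3 of mlc-3 had 7375 reads in L1 and 16531 in L2, 23 and 0 in dauers, 162 and 480 in young adults and 65 and 2945 on day 12. Exon 2 of unc-22 had 643 in L1, 9674 in L2, 26 and 0 in dauers, 103 and 271 in young adults and 0 and 13 on day 12. Exon 5 of vps-4 had 15370 in L1, 28954 in L2, 471 and 1960 in dauers, 492 and 922 in young adults and 57 and 1467 on day 12. All 3 sites were highest in the larval libraries, also relative to the larger dauer library 2. Among muscle stages larval libraries also put the largest part of their cis-site reads after long introns, as given above.

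The SL2-tag library had few sites of either class, with 1037 trans sites read against 4606 in the L2 muscle library. Its cis share was 2.40%, with 99 cis sites read of 2595477 site reads, against 2110 of 3213741 in the L2 library. The most-read were acbp-1 exon 2 (5544 reads), Y47H10A.4 exon 2 (5114), rpc-2 exon 9 (4020), C23G10.2 exon 2 (2296), mif-2 exon 2 (2131), rnh-1.0 exon 4 (1935), ubql-1 exon 11 (1847) and skr-18 exon 2 (1608). The sites of acbp-1 and rnh-1.0 start another transcript of the gene, and that of skr-18 falls on no exon start. In SL1-tag muscle ubql-1 exon 11, in a ubiquilin gene with an intron of 3890 bases before the exon, had 62 to 6577 reads. Exon 6 of Y37E3.11 had none of 622 reads of the gene in the SL2-tag library. The library is a single one with conflicting leader labels and entered no test.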

How the data were processed

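Tagged leader reads at splice acceptor sites were analysed for 15 libraries, 14 with the SL1 tag. The deposited values are whole read counts per site, not normalized, as the authors deposited them. Trimmomatic, TopHat2 and DESeq appear, without versions or roles, among the submitters' processing notes, and the genome build is not given in the sources used here. Groups came from the labels, and 3 columns of per-sample values that match no labelled sample were not used. Site totals were 164667 to 11544706 reads.

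A count for a site includes PCR copies, so reads from few molecules can look precise. Positions were compared with exon starts of the WBcel235 annotation (Ensembl release 115). Shares were compared by exact permutation over libraries (scipy 1.17.1). Site levels and within-gene parts were tested with edgeR 4.0.16 in R 4.3.3, in 1 quasi-likelihood fit of 8 group means over the 14 SL1-tag libraries (6 residual degrees of freedom, TMM scaling, edgeR's filter on low reads), with Benjamini-Hochberg adjustment over all tested sites. Scripts were tested on simulated data. Alternatives were other filters, DESeq2 1.42.0 size factors and Wald test, limma 3.58.1, a replicate block, only the groups compared, and leaving out libraries.

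Named sites were the 20 with the largest mean percentage of cis-site reads, up to 6 called sites per direction with the smallest p, up to 3 members per gene list with the most reads, the 8 most read in the SL2-tag library, and the 10 genes with the largest cis share. Other members of the gene lists are named because they were called. The members and the 12 lists were chosen with earlier results of these data known. Gene-level tables were not used, and acceptor sequences were not analysed here.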

Additional observations from a re-analysis of the deposited data

Results flagged for a closer look

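In 9 measures, every day 12 library differed from both young adult libraries in one direction in muscle and in the opposite direction in neurons. They were picked by that rule from a larger set. Most measures of the set did not meet it, among them the cis share and the part of cis-site reads at exon 2. With 2 libraries per group such a pattern can also arise by chance. The values below are day 12 minus young adult means (n = 2 libraries each), and the difference between the tissues was not tested. Day 12 muscle replicates stood apart from each other, and age and fluorodeoxyuridine differ together.

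Among cis-site reads with a known intron, the percentage after introns of at least 1000 bases differed by 14.4 points in muscle and by -4.35 in neurons. The percentage of all cis-site reads in genes with no trans site differed by 10.9 points in muscle and by -4.44 in neurons, and that on the X chromosome by 2.46 in muscle and -2.32 in neurons.

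Antisense sites, as a percentage of all reads, differed by 1.16 points in muscle and by -0.856 in neurons. Intergenic sites differed by 1.13 in muscle and -0.907 in neurons, and undetermined sites by 0.749 in muscle and -0.110 in neurons.

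The cis share of splicing factor genes differed by 16.6 points in muscle and by -8.73 in neurons. That of sarcomere genes differed by 5.17 in muscle and by -8.15 in neurons, where these genes have 145 to 265 reads in all. That of ribosomal protein genes differed by 0.245 in muscle and -0.0474 in neurons.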

How the results depend on the processing

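The differences in cis share kept their sign under every alternative run. Leaving out 1 library gave 13.9 to 17.9 points for muscle minus multiple tissues, 55.6 to 56.3 for neurons minus multiple tissues, -45.01 to -42.0 for muscle minus neurons within age, and 0.946 to 3.92 for day 12 minus young adults. The exact permutation p passed 0.05 for muscle minus multiple tissues as shares of detected sites at one depth (15.6 points, p = 0.0222) and for muscle minus neurons over all SL1-tag libraries (-39.1 points, p = 0.00202).

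Counts of called sites moved with the fit. For the part of a gene's reads, young adult muscle against multiple tissues, young adult neurons against multiple tissues and young adult muscle against neurons had 10, 34 and 7 cis sites. These were 22, 90 and 28 without a filter, 336, 604 and 460 with only the groups compared, 194, 1007 and 693 with limma's diffSplice, 79, 296 and 212 with the DESeq2 Wald test, and 188, 773 and 717 without dauer library 2 and the day 12 muscle libraries. Leaving out 1 library gave 0, 0 to 15 and 0 to 2. Muscle against neurons had 4 with DESeq2 size factors and 4 with at least 10 reads in 2 libraries. Day 12 against young adult muscle, day 12 against young adult neurons and dauer against young adult muscle had 0 in the reported fit. The first had 1 without a filter, 36 with limma and 42 with DESeq2, and the second had 27 with only the groups compared, 3 with DESeq2 and 4 without the 3 libraries. The third had 195 with limma, 23 with DESeq2, 12 without the 3 libraries, and 0 to 16 when 1 library was left out, 16 without dauer library 1.

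For levels, muscle against multiple tissues had 264 cis sites, 462 without a filter, 1226 with only the groups compared, 1037 without the 3 libraries, and 97 to 236 with 1 library left out. Neurons against multiple tissues had 1299, 688 with size factors, 2507 with only the groups compared, 771 with DESeq2, 3234 without the 3 libraries, and 612 to 757 with 1 library left out. Day 12 against young adult muscle had 1, 184 without a filter, 0 with only the groups compared, 3 with DESeq2, and 0 to 4 with 1 library left out. The causes were not tested.

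Replicate numbers did not pair the libraries, since deviations of same-numbered libraries correlated at -0.0718 to 0.0134. With the replicate block, counts were 2, 28 and 4 for parts of a gene's reads in the 3 tissue comparisons, 0 in the other 3, and 340, 1132 and 34 for levels. Of the 225 repeats of the 25 named level calls, 205 stayed past the threshold, and of the 208 repeats of the 19 named calls on parts of a gene's reads 132 did, with 0 reversed. The lowest depth, 164667 reads, limits what can be seen at single sites in day 12 neurons.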
